A study of Mus musculus with 3 samples.

Results

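In resting splenic natural killer cells (NKC), 1138 H3K4me1-marked regions each carried 2 or more Runx3-bound regions, called peaks here. They were selected on the deposited coordinates as H3K4me1-marked regions under 10000 bp wide that shared at least 1 bp with 2 or more Runx3 peaks. They made up 2.28% of the 49902 H3K4me1-marked regions in all (95% Wilson interval 2.15 to 2.42%). Another 12274 regions under 10 kb touched 1 peak and 35498 touched 0. Of the members, 1027 held 2 peaks, 101 held 3 and 10 held 4. They took in 2386 of the 15524 Runx3 peaks, or 15.4% (14.8 to 15.9%).

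Runx3 is a transcription factor of the RUNX family, whose members bind a short GC-containing sequence together with the partner protein CBFβ and act in the development and function of T cells and NKC. Monomethylation of histone H3 at lysine 4 marks enhancers and the flanks of active promoters, so that an enhancer or a promoter with its neighbourhood can appear as 1 long marked region. Several transcription factor peaks in such a region can be separate places of binding along the same stretch of marked chromatin. Coordinates alone do not show whether they are.

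The series held 3 ChIP-seq samples of freshly isolated spleen NKC of ICR mice, an outbred strain, 1 sample for each precipitation. The antibodies were a home-made rabbit polyclonal anti-Runx3 and a monoclonal anti-H3K4me1, and non-immune serum (NIS) of rabbit was the control. All 3 samples came from resting wild-type cells with no further treatment, fixed in 1% formaldehyde and sonicated to about 300 bp. The labels name NKp46 and the study's methods name DX5 as the sorted surface marker, and the coordinates do not settle which was used. The age of the mice is not given in the sources used here.

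The 2 lists hold coordinates with neither read counts nor scores, so the depth behind each peak is unknown and no strength of binding was compared. There was 1 list per antibody, made from 2 joined biological repeats, and hence no spread between replicates. Every interval below covers counting error over regions or peaks, which are not biological replicates, and no p-value is given. Around the 6 NK markers examined (gene body and 5 kb on each side) lay 20 Runx3 peaks, at least 1 at each, and H3K4me1 covered 60.2 to 92.9% of these spans. Of 5 T cell, 4 B cell and 4 myeloid markers, 2, 2 and 1 had a peak. Their median H3K4me1 cover was 14.2% (range 0 to 80.3%), 8.46% (0 to 35.3%) and 11.8% (0 to 20.9%), beside 73.9% for the NK markers. Among these markers, multi-peak regions lay at Klrd1 and Eomes of the NK group and at Cd79a and Pax5 of the B cell group.

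Before the counts, the sequence under the peaks of 3 multi-peak regions at NKC genes is shown, since a peak is a stretch of DNA and the regions differ in how many of their peaks carry the RUNX consensus. The consensus was searched on both strands as the letters TGTGGT, the letters TGTGGC, the letters TGCGGT or the letters TGCGGC. Each window is the central 200 bp of a peak in the mm9 reference, plus strand, 5′ to 3′, with every match in capitals, and matches can overlap each other. The reference is not the sequence of the ICR mice. A match describes the letters and is not a measured site.

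The first region lay at chr6:129529488-129539034 (9547 bp), over Klre1 and within 5 kb of Klrd1. Klrd1 (CD94) pairs with NKG2 receptors on NKC, and Klre1 is another lectin-like receptor of the NK gene complex. Its 4 peaks are the largest number found in any multi-peak region. The windows of peaks 1, 3 and 4 held 1, 3 and 2 RUNX matches and that of peak 2 held 0. The window midway in the widest gap, named between, held 2 matches although no peak was called there.
Klre1 peak 1, chr6:129532045-129532244: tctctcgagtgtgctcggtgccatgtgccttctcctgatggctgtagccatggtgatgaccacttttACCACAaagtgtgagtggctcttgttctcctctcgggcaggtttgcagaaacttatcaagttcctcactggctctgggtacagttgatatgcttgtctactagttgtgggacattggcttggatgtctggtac
Klre1 peak 2, chr6:129533221-129533420: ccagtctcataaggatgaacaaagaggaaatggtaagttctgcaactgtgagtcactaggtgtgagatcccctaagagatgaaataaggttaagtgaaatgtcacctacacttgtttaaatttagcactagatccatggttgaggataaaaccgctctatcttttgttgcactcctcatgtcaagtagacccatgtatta
Klre1 peak 3, chr6:129537029-129537228: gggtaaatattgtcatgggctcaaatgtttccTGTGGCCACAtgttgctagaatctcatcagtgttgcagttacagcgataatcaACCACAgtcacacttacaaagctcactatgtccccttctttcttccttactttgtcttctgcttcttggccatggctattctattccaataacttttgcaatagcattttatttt
Klre1 peak 4, chr6:129538051-129538250: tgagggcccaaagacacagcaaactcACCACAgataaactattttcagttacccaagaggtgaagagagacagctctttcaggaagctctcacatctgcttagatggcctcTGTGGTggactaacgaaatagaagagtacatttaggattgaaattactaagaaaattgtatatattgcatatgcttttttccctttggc
Klre1 between, chr6:129534990-129535189: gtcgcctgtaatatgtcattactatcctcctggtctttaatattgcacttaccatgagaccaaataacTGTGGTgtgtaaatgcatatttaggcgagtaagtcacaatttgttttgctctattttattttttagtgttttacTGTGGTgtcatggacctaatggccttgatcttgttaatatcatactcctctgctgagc

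The region at chr6:122237589-122247302 (9714 bp) lay beside Klrg1, an inhibitory receptor for cadherins on mature NKC. It held 3 peaks, all between genes and all 9081 to 12467 bp from the nearest TSS. Of its windows, peaks 1 and 2 held 1 match each and peak 3 held 0. The window of peak 1 also held 2 AP-1 matches.
Klrg1 peak 1, chr6:122241881-122242080: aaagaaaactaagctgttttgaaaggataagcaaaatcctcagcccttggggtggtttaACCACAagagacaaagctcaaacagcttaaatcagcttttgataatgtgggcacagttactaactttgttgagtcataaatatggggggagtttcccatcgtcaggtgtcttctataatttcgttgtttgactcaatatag
Klrg1 peak 2, chr6:122243941-122244140: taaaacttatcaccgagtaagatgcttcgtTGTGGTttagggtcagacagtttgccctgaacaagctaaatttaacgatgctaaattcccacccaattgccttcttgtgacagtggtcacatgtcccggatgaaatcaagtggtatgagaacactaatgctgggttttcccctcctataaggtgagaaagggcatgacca
Klrg1 peak 3, chr6:122245267-122245466: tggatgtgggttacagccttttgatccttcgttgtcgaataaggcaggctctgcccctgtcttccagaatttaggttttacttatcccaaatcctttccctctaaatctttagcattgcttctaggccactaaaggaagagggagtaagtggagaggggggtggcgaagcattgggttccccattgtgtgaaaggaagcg

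The region at chr1:166861798-166867599 (5802 bp) touched Xcl1, which encodes the chemokine lymphotactin secreted by activated NKC. It is shown as an example of the commonest near-gene arrangement below, a peak at a TSS with a partner at 1 to 5 kb. Peak 2 lay between genes 310 bp from the nearest TSS and held 2 matches. Peak 1 lay in an intron of Xcl1, 1556 bp from the nearest TSS, and held 1. The window between them held 0.
Xcl1 peak 1, chr1:166864002-166864201: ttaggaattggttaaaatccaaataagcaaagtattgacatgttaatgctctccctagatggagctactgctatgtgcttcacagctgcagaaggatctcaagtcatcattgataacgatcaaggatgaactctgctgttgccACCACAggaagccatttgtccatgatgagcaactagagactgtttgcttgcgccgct
Xcl1 peak 2, chr1:166865868-166866067: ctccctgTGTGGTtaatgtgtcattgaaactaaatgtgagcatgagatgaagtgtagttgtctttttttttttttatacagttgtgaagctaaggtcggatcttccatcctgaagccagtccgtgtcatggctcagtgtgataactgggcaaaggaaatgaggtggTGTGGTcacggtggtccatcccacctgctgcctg
Xcl1 between, chr1:166864853-166865052: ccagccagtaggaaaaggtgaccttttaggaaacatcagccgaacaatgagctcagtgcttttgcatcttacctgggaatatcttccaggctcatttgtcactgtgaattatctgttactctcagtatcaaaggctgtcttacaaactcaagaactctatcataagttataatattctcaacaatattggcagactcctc

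The regions with 4 peaks are a varied group in gene function and in layout. At chr7:29164235-29172208, over Med29 and Zfp36, peaks covered 63.5% of 7974 bp. Zfp36 (tristetraprolin) promotes the decay of cytokine mRNAs. This was the most densely covered of the 10 regions, with peak widths of 1648, 740, 2900 and 903 bp. The region at Crybb1, a lens crystallin gene, and Tpst2, a protein-tyrosine sulfotransferase, spanned 9413 bp with 45.7% under peaks. Its 4 peaks lay between annotated protein-coding genes at 5431, 3032, 1549 and 175 bp from the nearest TSS, and so came nearer to a start from peak to peak.

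At Elmo2, an adaptor in Rac activation and engulfment, the region was 9955 bp wide and also ranked among the 5 widest members. Its 4 peaks were all intronic, at 773, 1032, 2302 and 1134 bp from the nearest of several TSSs. At Ablim1, an actin-binding LIM protein, peaks lay 28, 942, 3994 and 4811 bp from a TSS over 7981 bp. In both genes a second multi-peak region with 2 peaks lay alongside, which brought each gene to 6 peaks. The region beside Adamts14, a secreted metalloprotease gene, held all 4 peaks outside protein-coding genes at 515, 2429, 3783 and 4740 bp from the nearest TSS.

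Per1, a repressor of the circadian clock, had 4 peaks at 19, 1830, 173 and 141 bp from a TSS within 6455 bp, the narrowest region of the 10. Trappc3, a part of a vesicle-tethering complex, had them at 41, 2458, 1397 and 26 bp. Both regions thus had a peak at a start toward each end of the series of peaks. Coro1a encodes coronin 1A, an actin regulator of leukocytes, and shared its region of 7859 bp with Bola2. All 4 of its peaks lay under 1 kb from a TSS, at 47, 116, 77 and 6 bp, but the last shared only 15 bp with the marked region. At Arl5c and Cacnb1, the latter a calcium channel subunit, neighbouring midpoints were 985.5, 530 and 666 bp apart, and 530 bp was the smallest spacing in any member.

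**Figure D1:**
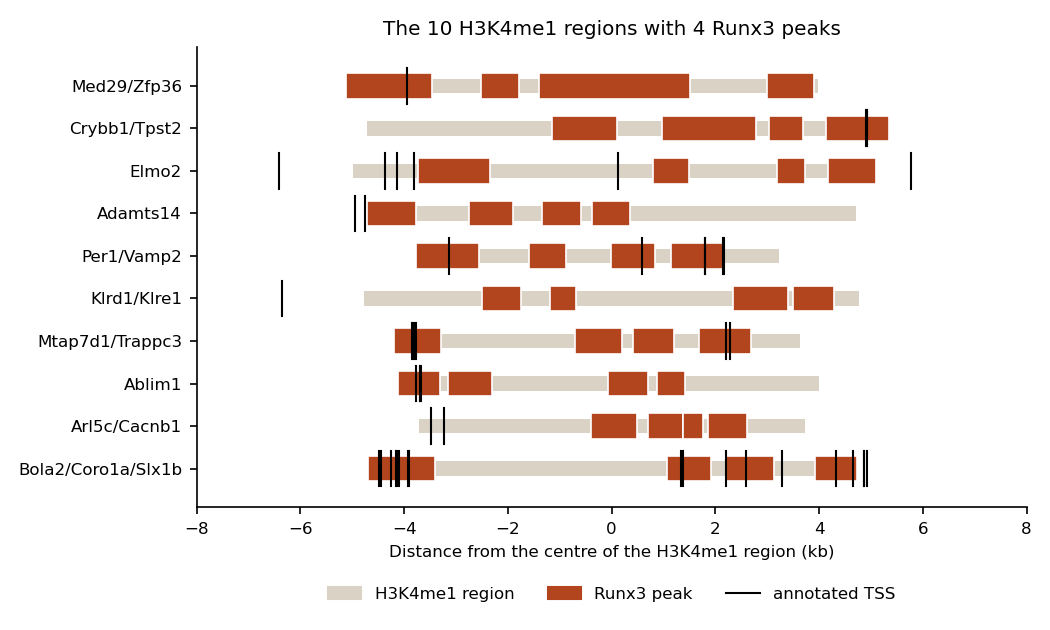
Maps of the 10 H3K4me1 regions with 4 Runx3 peaks, drawn to scale against the distance from the region's centre in kb; beige bars are the marked region, brown bars the peaks and black lines annotated TSSs within 2.5 kb of the region, and rows are named by genes within 5 kb. The Coro1a region has a peak at 1 end and 3 at the other, whereas in the Zfp36 region peaks cover 63.5% of the bases.

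Multi-peak regions were wide. Their median width was 5933 bp (interquartile range 4349 to 7775.75 bp, 95% interval of the median 5749 to 6131 bp). Single-peak regions had a median of 2363 bp (1522 to 3588 bp, interval 2333 to 2399 bp), and regions with 0 peaks 1610 bp. The difference of the medians between multi-peak and single-peak regions was 3570 bp. Members with 2 peaks had a median of 5733 bp, those with 3 peaks 7929 bp and those with 4 peaks 7977.5 bp. Since a wider region can touch more peaks and the width limit was part of the rule, these widths describe the selection and were not tested.

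The share of regions with 2 or more peaks climbed with width. Among peak-holding regions under 1500 bp it was 0.534% (16 of 2996, interval 0.329 to 0.866%). It was 1.91% (1.57 to 2.32%) at 1.5 to 3 kb and 9.06% (8.11 to 10.1%) at 3 to 5 kb. At 5 to 10 kb it reached 34.1% (738 of 2165, interval 32.1 to 36.1%). Peaks covered a median of 28.1% of a multi-peak region (27.3 to 29.2%) and 25% of a single-peak region (24.7 to 25.4%). The number of peaks per kb of region went the other way, with medians of 0.354 (0.346 to 0.366) and 0.423 (0.417 to 0.429). Cover and number per kb were not compared at like width. The peaks themselves were about as wide in both kinds of region, with medians of 834 bp (823 to 843 bp) and 822 bp (818 to 826 bp).

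**Figure D2:**
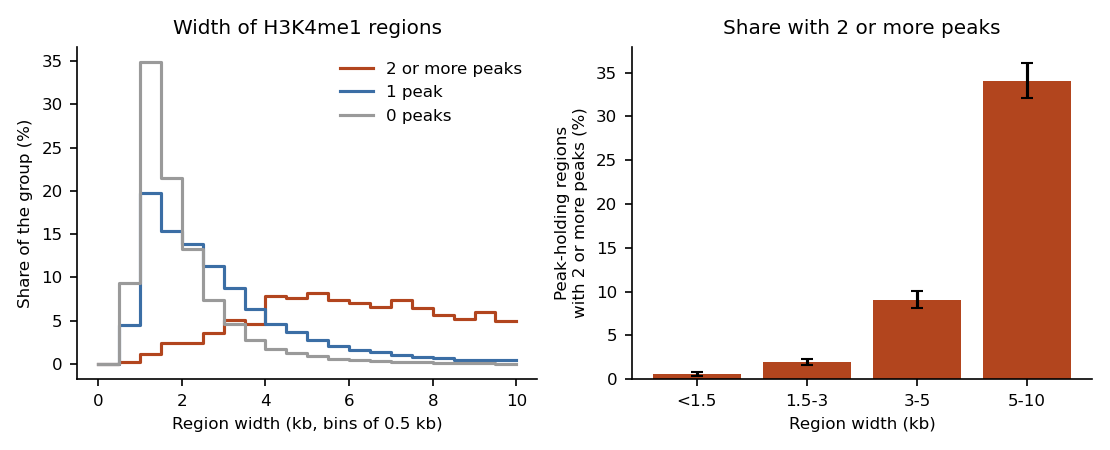
Left, the share of each group of H3K4me1 regions under 10 kb (in %) in width bins of 0.5 kb, for regions with 2 or more, 1 or 0 Runx3 peaks. Right, the share of peak-holding regions with 2 or more peaks in 4 width classes (bars, with 95% Wilson intervals), which goes from 0.534% under 1.5 kb to 34.1% at 5 to 10 kb.

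At the limits of the rule, the widest member was a region of 9997 bp in Fryl, followed by 9994 bp in Inpp5d, which encodes the inositol phosphatase SHIP-1. The next regions, left out by width, were 10001 bp wide with 3 peaks and 10017 bp wide with 2 peaks at Cd247. In all, 606 regions of 10 kb or more had 2 or more peaks, so members were 65.3% of all regions with several peaks. Contact by a few bases was enough, and a member at Clcn3 shared 1 bp with a peak. In 26 members a peak shared under 50 bp and in 207 fewer than 2 peak midpoints lay inside the region. Conversely, 254 single-peak regions had another peak within 500 bp of their edge.

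The 5 narrowest members differed widely in how much of them lay under peaks. A region of 716 bp on chromosome 8 with no protein-coding gene within 5 kb had 90.5% of its bases under 2 peaks, and both peaks had near-identical copies elsewhere in mm9. A region of 1078 bp beside Fam136a had 84.6% under peaks, that of 964 bp at Mettl17 76.0% and that of 1087 bp at Atf6 and Dusp12 50.3%. The region of 906 bp within 5 kb of Cdkn1b, the cell-cycle inhibitor p27, had 30.6% and shared only 105 and 172 bp with its peaks. Among the members with the greatest share under peaks, at Iscu and Sart3 the value was 86.4% over 1252 bp, at Hnrnpl 86.3% over 1318 bp and at Coro6 79.2% over 1820 bp.

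Neighbouring peaks in the same region lay a median of 2024.5 bp apart from midpoint to midpoint (1259 pairs, interquartile range 1306.5 to 3066.25 bp, interval of the median 1948.5 to 2131.5 bp, range 530 to 8079.5 bp). The gap between their edges had a median of 1146 bp (1048 to 1223 bp) and was under 100 bp in 95 pairs, or 7.55%. Thus most pairs were separated by more than the width of a peak, while a minority nearly touched. Spacings of 1000 to 2000 bp were the commonest class, with 473 pairs (37.6%), and 44 pairs (3.49%) were 5000 bp or more apart. Spacing grew with the region, from a median of 1128.5 bp in 2-peak regions under 3000 bp to 1614.25 bp at 3 to 5 kb and 2659 bp at 5 to 10 kb.

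Spacing also differed with the position of the pair relative to starts. When both peaks lay under 1 kb from a TSS the median was 1442 bp (1227.5 to 1833.5 bp, 179 pairs). It was 2332.5 bp (2155.5 to 2465 bp, 361 pairs) for a peak under 1 kb with a partner at 1 to 5 kb. Pairs with both peaks over 5 kb away were spaced by 1975 bp (1807.5 to 2070.5 bp, 511 pairs). The classes are set by distance from a TSS and so limit the spacing by construction. Region width also differed between them, as given below, and these spacings were not tested. In 3-peak regions the shorter of the 2 spacings was a median of 63.3% of the longer (interquartile range 43.5 to 76.0%). This ratio was not compared with that of peaks placed at random. In 2-peak regions the region's own centre lay between the peak midpoints in 754 of 1027 (73.4%, 70.6 to 76.0%), and the narrower peak had a median of 78.1% of the width of the wider.

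Whether close neighbours shared a marked region depended on their distance. Of all 4461 neighbouring Runx3 peaks with midpoints up to 10 kb apart, 2444 touched the same H3K4me1 region (54.8%, 53.3 to 56.2%), regions of 10 kb or more included. The share was 68.7% (63.0 to 73.8%) below 1 kb and 81.8% (78.7 to 84.6%) at 2 to 3 kb. It then dropped to 53.4% at 4 to 5 kb and 10.9% (7.89 to 14.9%) at 9 to 10 kb. At 9 to 10 kb, 81.8% of the pairs touched different marked regions. The width of the marked regions and the distance enter this share together, and it was not tested.

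**Figure D3:**
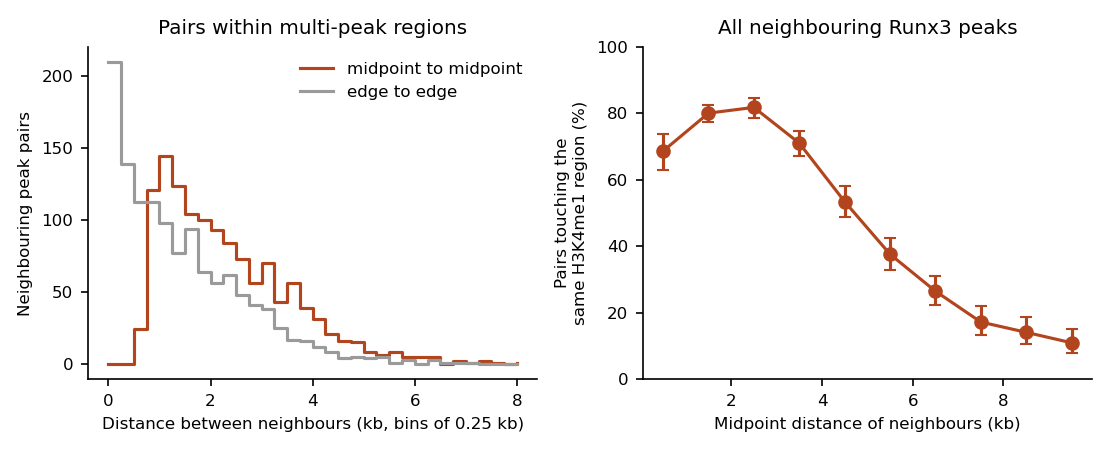
Left, the number of neighbouring Runx3 peak pairs within multi-peak regions by distance in kb (bins of 0.25 kb), from midpoint to midpoint (brown) and from edge to edge (grey). Right, for all neighbouring Runx3 peaks, the share (in %, with 95% Wilson intervals) that touch the same H3K4me1 region by midpoint distance in kb, with the highest value, 81.8%, at 2 to 3 kb and 10.9% at 9 to 10 kb.

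Peaks of multi-peak regions were less often at a TSS and more often a few kb from it than peaks of single-peak regions. Of the 2386 peaks, 704 lay under 1 kb from an annotated TSS (29.5%), against 4833 of the 10367 peaks of single-peak regions that touched no member (46.6%), a difference of -17.1 percentage points (Newcombe 95% interval -19.2 to -15.0). At 1 to 5 kb the shares were 25.9% and 12.0%, a difference of 13.9 points (12.1 to 15.8). At 5 to 50 kb they were 35.8% and 33.0%, and over 50 kb 8.84% and 8.48%.

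In the 3 wider width classes the contrast near the TSS was not seen between regions of like width. Counting each contact of a peak with a region, 22.3% of the peaks in multi-peak regions of 5 to 10 kb lay under 1 kb from a TSS and 23.2% in single-peak regions of that width, a difference of -0.903 points (-3.91 to 2.09). At 3 to 5 kb the difference was 3.55 points (-0.645 to 7.88) and at 1.5 to 3 kb 6.67 points (-0.436 to 13.3). Under 1500 bp, with 32 contacts in 16 members, it was -12.3 points (-29.6 to 0.347), in the direction of the pooled contrast. The excess at 1 to 5 kb was present in every width class. From the widest down it was 5.74 points (2.77 to 8.67), 14.4 points (10.5 to 18.4) and 13.8 points (8.37 to 20.2). Under 1500 bp it was 11.7 points (2.94 to 27.9). Neighbouring peaks of a member lay at least 530 bp apart. A further peak beside a peak at a TSS can thus fall at 1 to 5 kb by its spacing alone, and the part of this in the excess was not tested. Peaks at 5 to 50 kb were fewer in multi-peak regions at 3 to 5 kb, by -16.8 points (-20.5 to -12.8), and at 1.5 to 3 kb, by -15.5 points (-19.5 to -10).

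Counted by region, 451 of 1138 members held a TSS within their bounds (39.6%, 36.8 to 42.5%), against 4073 of 12274 single-peak regions (33.2%, 32.4 to 34%). The difference was 6.45 points (3.52 to 9.44). It was 19 points (9.08 to 28.7) at 1.5 to 3 kb, 15.3 points (9.45 to 21.3) at 3 to 5 kb and 9.68 points (5.54 to 13.9) at 5 to 10 kb. In the 16 members under 1500 bp it was 2.78 points (-18.0 to 25.9), too few regions to show a direction. When a TSS within 1000 bp of the region also counted, the pooled difference turned to -5.49 points (-8.52 to -2.48), with 54.2% of members and 59.7% of single-peak regions. Within the 3 wider classes it stayed above 0 under that count, at 19.2, 20 and 6.44 points.

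**Figure D4:**
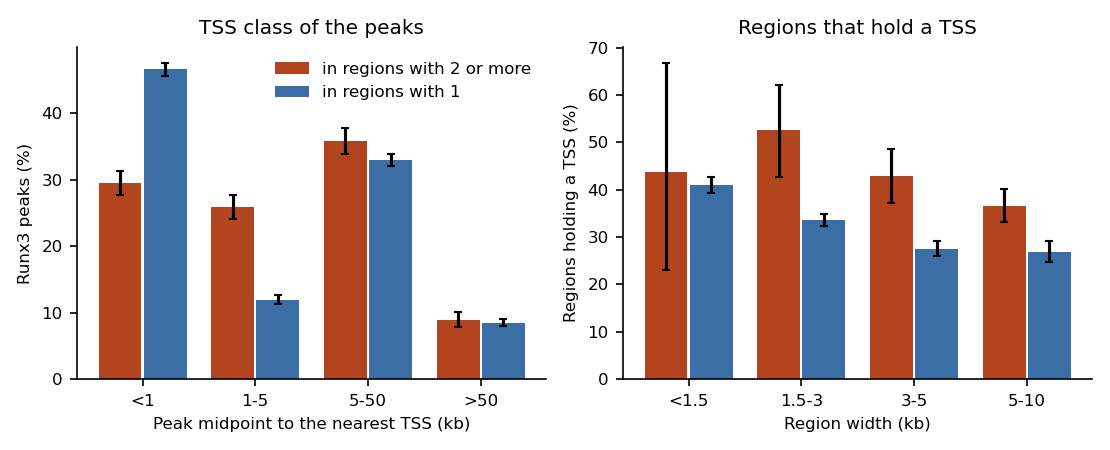
Left, the share of Runx3 peaks (in %, with 95% Wilson intervals) by distance from the nearest TSS in kb, for peaks in regions with 2 or more peaks (brown) and with 1 peak (blue). Right, the share of H3K4me1 regions that hold a TSS by region width in kb, same colours and intervals. The brown bar is 36.6% and the blue 26.9% in the widest class.

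The peaks of a region were combined in 3 main ways. In 465 members (40.9%, 38 to 43.7%) all peaks lay over 5 kb from a TSS, as at Eomes, Slamf7 and Klrg1. In 341 (30.0%, 27.4 to 32.7%) a peak under 1 kb was joined by a peak at 1 to 5 kb, as at Xcl1, Gzmb, Klrk1 and Cxcr3. In 159 (14%, 12.1 to 16.1%) all peaks lay under 1 kb from a TSS, as at Coro1a and Lck. The remote group had a median region width of 6630 bp (6359 to 6917 bp), the mixed group 5408 bp (5026 to 5721 bp) and the group at starts 4120 bp (3439 to 4573 bp).

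A TSS lay between the midpoints of 330 of 1259 neighbouring pairs (26.2%, 23.9 to 28.7%). Of the 179 pairs with both peaks under 1 kb from a TSS, 146 had a TSS between them (81.6%, 75.2 to 86.6%). In 118 of the 179 both peaks had starts of the same gene nearby (65.9%, 58.7 to 72.5%), and in 61 the starts belonged to different genes, 31 of these on opposite strands. Of the 361 pairs of a peak at a TSS and a partner at 1 to 5 kb, the partner lay upstream in 180 (49.9%, 44.7 to 55.0%) and downstream in 140 (38.8%, 33.9 to 43.9%). In the other 41 the peak at the TSS had starts on both strands within 1 kb, so the partner was assigned no side. The midpoints of member peaks at least 1 kb from a start lay in introns in 46.1% and between genes in 49.9%, against 47.5% and 48.8% in single-peak regions, differences of -1.41 points (-4.12 to 1.31) and 1.06 points (-1.67 to 3.78).

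Peaks of multi-peak regions crossed the edge of the marked region less often. Of 2397 contacts 427 crossed an edge (17.8%, 16.3 to 19.4%), compared with 5652 of 12274 in single-peak regions (46.0%, 45.2 to 46.9%). Single-peak regions were narrower (median 2363 bp against 5933 bp), and edge crossing was not compared at like width. In 749 members all peaks lay wholly inside. A further Runx3 peak lay outside but within 10 kb of 505 members (44.4%, 41.5 to 47.3%) and of 31.9% of single-peak regions (31.1 to 32.7%). Among regions of 5 to 10 kb the shares were 48.5% (44.9 to 52.1%) and 47.4% (44.8 to 50%), so the contrast was not seen at that width. Another multi-peak region lay within 10 kb of 103 members (9.05%, 7.52 to 10.9%).

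The RUNX consensus was about as common under both kinds of peak. In the central 200 bp, 1641 of 2386 peaks of multi-peak regions held a match (68.8%, 66.9 to 70.6%) and 7178 of 10367 of single-peak regions (69.2%, 68.3 to 70.1%), a difference of -0.463 points (-2.55 to 1.57). Windows midway between neighbouring peaks held it in 289 of 1080 (26.8%, 24.2 to 29.5%), close to the 24.5% (24 to 25%) of 25572 windows of the same length placed every 100 kb along the genome. The difference between the peaks and the windows midway between them was 42 points (38.7 to 45.2). As at Klre1, where the window between peaks held 2 matches, single windows can depart from this.

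The shares differed by position. For peaks over 5 kb from a TSS the share was 71.8% in multi-peak and 76.8% in single-peak regions, a difference of -4.96 points (-8.0 to -2.04). Among regions of 5000 bp or more it was 71.6% and 71.2%, a difference of 0.415 points (-3.93 to 4.76). For peaks at 1 to 5 kb the difference was -6.58 points (-11.0 to -2.30), and for peaks under 1 kb 2.72 points (-1.15 to 6.46). The variant TGTGGT was more frequent in multi-peak regions (43.7% against 39.5%) and TGCGGC less frequent (7.21% against 12.8%), with differences of 4.13 points (1.94 to 6.34) and -5.64 points (-6.81 to -4.36). By position the TGTGGT difference was 5.74 points (2.45 to 9.27) under 1 kb, but -4.56 points (-9.36 to 0.259) at 1 to 5 kb and -5.04 points (-8.39 to -1.71) over 5 kb, so the pooled excess did not hold away from the TSS. The median GC content of the windows was 51.5% and 54.0%, which moved with these shares, and its part in them was not tested.

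Motifs of other factor families were counted in the same windows. The ETS consensus, searched as AGGAAGT and CGGAAGT, is bound by factors such as Ets1 in lymphocytes and was found in 20.7% and 20.5% of the peaks, a difference of 0.20 points (-1.57 to 2.04). The AP-1 consensus, TGACTCA or its complement TGAGTCA, was found in 7.21% and 4.92%, a difference of 2.29 points (1.23 to 3.47). It was 5.11% and 2.17% for peaks under 1 kb from a TSS, a difference of 2.94 points (1.47 to 4.86), and 8.45% and 7.38% over 5 kb, where the difference of 1.07 points (-0.662 to 3.04) included 0. The SP1 box GGGCGG, common in GC-rich promoters, was found in 15.4% and 25.8%, a difference of -10.4 points (-12.0 to -8.65). This difference was -13.9 points (-17.5 to -10.1) under 1 kb from a TSS, 1.01 points (-1.85 to 4.14) at 1 to 5 kb and -0.412 points (-1.97 to 1.39) over 5 kb. Fixed windows held the ETS, AP-1 and SP1 letters in 5.21%, 3.13% and 2.0%.

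Within mixed pairs the peak at the TSS and its partner at 1 to 5 kb carried different letters. TGTGGT was found in 25.8% of the peaks at the TSS and 49.6% of the partners, a difference of -23.8 points (-30.5 to -16.8). TGCGGC was found in 15.0% and 4.99%, and SP1 in 34.9% and 11.9%, differences of 9.97 points (5.66 to 14.4) and 23.0 points (17.0 to 28.8). The median GC content was 60.5% at the TSS and 50% in the partner. Peaks of single-peak regions differed in the same direction between under 1 kb and 1 to 5 kb from a TSS. Among them TGTGGT was found in 19.97% and 53.5%, TGCGGC in 21.8% and 6.05%, and SP1 in 46.6% and 10.01%. The contrast was thus not particular to mixed pairs or to multi-peak regions. The intervals for the pairs treat the peaks at the TSS and the partners as separate sets, so the pairing within a region was not used. They also treat the pairs as independent, and the 361 pairs held 356 distinct peaks at a TSS and 353 distinct partners.

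In 2-peak regions both peaks held a RUNX match in 498 of 1027 (48.5%, 45.4 to 51.5%). In 438 (42.6%) 1 peak held it and in 91 (8.86%) neither did. When both peaks lay over 5 kb from a TSS the shares were 55.3%, 37.1% and 7.60%. Both peaks held an ETS match in 42 regions (4.09%) and both held an AP-1 match in 4 (0.389%). The wider peak held a RUNX match in 67.9% and the narrower in 71.9% of 1024 regions with peaks of unequal width.

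**Figure D5:**
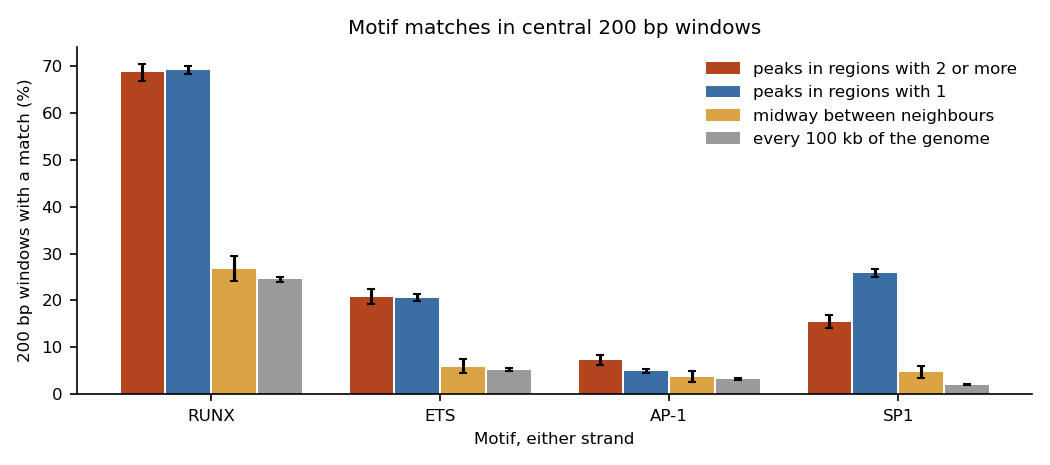
Share of 200 bp windows with a match to each motif on either strand (bars in %, with 95% Wilson intervals), for the centres of peaks in multi-peak (brown) and single-peak regions (blue), windows midway between neighbouring peaks of multi-peak regions (yellow) and windows every 100 kb of the genome (grey). RUNX is at 68.8% and 69.2% under the peaks and at 26.8% midway between them.

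Genes were assigned a region when it touched the gene body extended by 5 kb on each side. Of 22350 protein-coding genes, 1211 had a multi-peak region, or 5.42%, and 8230 had a single-peak region, or 36.8%. Regions of 10 kb or more with several peaks served 576 genes, or 2.58%. Of the members, 895 had a protein-coding gene within 5 kb and 791 touched a gene body. The genes with a multi-peak region had a median length of 22.05 kb, compared with 15.4 kb for all protein-coding genes, and the part of gene length in the counts below was not tested.

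Most of these genes had a lone multi-peak region, 1129 of 1211, while 75 had 2 and 7 had more. Gm20388 had 8 with 18 peaks, but this gene model spans 4435 kb and runs over several other genes. Fnbp1, which encodes a protein that bends the membrane during endocytosis, had 4 regions with 9 peaks in 116 kb. Of its regions, 3 held a TSS. Arsb, a lysosomal sulfatase, had 3 regions with 7 peaks, and Pdcd4, an inhibitor of translation, 3 with 6 peaks that followed each other from the promoter into the gene. Ddx39b, an RNA helicase in the major histocompatibility complex, had 3 with 6 although the gene is only 12.0 kb long, because regions at neighbouring genes fell within 5 kb. Cdk14, a cell-cycle kinase, had 3 with 6 and Plxnc1, a semaphorin receptor, 3 with 5.

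Of the 75 genes with 2 multi-peak regions, 8 are named here, taken by the number of peaks and then by alphabetical order. Ablim1 and Elmo2 had 6 peaks. Aak1, an endocytic kinase, Cass4, an adhesion scaffold, Chst11, a chondroitin sulfotransferase, Fbxw4, Cldnd2 and C230081A13Rik had 5 peaks, as did Klrg1, Nkg7, Junb and Selplg. Cldnd2 lies beside Nkg7, and both were served by the same 2 regions.

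Of the receptors through which NKC recognise target cells, 9 of 29 had a multi-peak region (31.0%, beside 5.42% of all genes). Beside Klrd1, Klre1 and Klrg1, described above, these were Klra4 (the activating receptor Ly49D), Klri2, Klrk1, Slamf7, Cd48 and Fcgr3. Of the 29, 55.2% had a single-peak region and 24.1% a region of 10 kb or more with several peaks. Of all genes, 36.8% and 2.58% had them. The excess over all genes was thus not particular to multi-peak regions. At Klrk1, which encodes the stress-ligand receptor NKG2D, 2 peaks lay 57 and 3814 bp from a TSS, 3757 bp apart. At Fcgr3, the receptor for antibody-coated cells, 3 peaks lay 89, 1116 and 2372 bp from a TSS and all midpoints were intronic. At Slamf7, a self-ligand receptor, 3 peaks lay 17475 to 20485 bp from a TSS. Klrg1 was the 1 receptor gene of this list with 2 multi-peak regions, which held 5 peaks.

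Genes of killing and effector cytokines had a multi-peak region at 5 of 21 (23.8%). They had a single-peak region at 42.9% and a region of 10 kb or more with several peaks at 28.6%. Of all genes, 5.42% had a multi-peak region, 36.8% a single-peak region and 2.58% such a wide region. The excess over all genes was thus again not particular to multi-peak regions. Gzmb and Gzma encode granzymes, the proteases that NKC deliver into targets. At Gzmb the 2 peaks lay 81 and 4104 bp from a TSS, and at Gzma 1043 and 3082 bp, with no midpoint in a gene body. Nkg7, a protein of cytotoxic granules, had 2 regions with 5 peaks, whose midpoints lay in Lim2, in Cldnd2 or between genes. Tnfsf10 (the death ligand TRAIL) and Serpinb9 (an inhibitor of granzyme B) had 2 peaks each.

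Among cytokine and chemokine receptors and ligands 8 of 29 had a multi-peak region (27.6%, beside 5.42% of all genes). These were Il12rb1, Il18r1, Il21r, Ifngr1, Xcl1, Cxcr3, Ccr7 and S1pr5. Single-peak regions lay at 62.1% of the 29 and regions of 10 kb or more with several peaks at 34.5%, beside 36.8% and 2.58% of all genes. Il12rb1 and Il18r1 encode subunits of the receptors for interleukins 12 and 18, and had 2 peaks each, 4747 and 3006 bp apart. At Cxcr3, a chemokine receptor on chromosome X, peaks lay 224 and 3172 bp from a TSS. S1pr5, a sphingosine 1-phosphate receptor needed for the exit of NKC from lymphoid organs, lay beside 2 regions that shared a peak, so they held 3 peaks between them. The midpoints of the first peak and of the shared peak lay in exons of its neighbour Keap1. The midpoint of the last peak lay in an intron of S1pr5.

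Signalling from receptors was the list with the highest share, 17 of the 42 genes matched (40.5%, beside 5.42% of all genes). The 1 listed gene not found under its symbol, Syk, was not counted, although a multi-peak region with 2 peaks lay at the gene annotated as Sykb. Of the 42 genes, 52.4% had a single-peak region and 47.6% a region of 10 kb or more with several peaks, beside 36.8% and 2.58% of all genes. The genes had a median length of 44.9 kb. Cd247 and Fcer1g, adaptor chains of activating receptors, had 2 peaks each, as did the kinases Lck and Jak3 and the adaptors Lcp2, Sh2d1b1 and Dok2. Both midpoints assigned to Jak3 lay in introns of its neighbour Unc13a. Stat4, which transmits interleukin 12 signals, and Pik3cd, a catalytic subunit of phosphoinositide 3-kinase, had 3 peaks. In each of them the edge peak barely entered, sharing 4 bp and 114 bp with the region. Inpp5d and Prkch had 2 regions with 4 peaks each. Plcg1, Pik3r1, Cbl, Socs1 and Socs3 also had 2 peaks each.

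Transcription factors of lymphocytes had a multi-peak region at 9 of 55 (16.4%, beside 5.42% of all genes). A single-peak region lay at 44 (80.0%, beside 36.8%) and a region of 10 kb or more with several peaks at 22 (40.0%, beside 2.58%). The genes of this list had a median length of 52.6 kb. Runx1, the paralog of Runx3, had 2 regions with 4 peaks, 1 of them remote at 28427 and 32129 bp from a TSS and 1 at 509 and 764 bp. Junb, an AP-1 subunit, had 2 with 5 peaks, while Fos, another AP-1 subunit, had 1 with 2. Eomes, a T-box factor of NKC maturation, had 2 peaks in a region of 7570 bp with 7.86% under peaks, the lowest cover of any member, and its second peak shared only 31 bp. Nfil3, needed for NKC development, Ikzf3, Bach2 and Lef1 had 2 peaks each. Nfatc1 had 3 peaks, and the midpoints of these 3 were all intronic.

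Adhesion and cytoskeleton genes had a multi-peak region at 6 of 27 (22.2%), a single-peak region at 66.7% and a region of 10 kb or more with several peaks at 55.6%. In all genes these shares were 5.42%, 36.8% and 2.58%. Selplg, the selectin ligand PSGL-1, had 2 regions with 5 peaks, at 5925, 4677, 2347, 60 and 2246 bp from a TSS. Coro1a had 4 peaks, and Itgam, Itga6, Rapgef1 and Tln1 had 2 each. Among the 101 regions with 3 peaks, those at Nfatc1 and over Mtx1, Muc1, Thbs3 and Trim46 had the most bases under peaks.

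Lists for other cell types were counted in the same way. Genes of B cell and myeloid identity had a multi-peak region at 3 of 22 (13.6%) and genes of liver, nerve and muscle at 0 of 20. Single-peak regions lay at 31.8% and 5% of them, and regions of 10 kb or more with several peaks at 0% of both. In all genes the shares were 5.42% for multi-peak, 36.8% for single-peak and 2.58% for these wide regions. At Cd79a, a chain of the B cell receptor, both midpoints lay in Arhgef1, a neighbouring gene. At Cd68, a lysosomal protein of macrophages, the 3 midpoints lay in Mpdu1, Cd68 and Eif4a1. At Pax5, the factor of B cell identity, both peaks were intronic, 8420 and 8698 bp from a TSS and 2282 bp apart.

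Along the chromosomes, members were 4.83% of the peak-holding regions under 10 kb on chromosome X (7 members, 2.36 to 9.63%) and 10.2% on chromosome 10 (78 members, 8.23 to 12.5%), the lowest and the highest of 20 chromosomes, whose intervals overlapped.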

How the data were processed

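Reads (40 bp per the labels) were aligned to mm9 with ELAND per the study's methods, unique alignments were kept, and the authors joined the reads of 2 biological repeats and called regions with MACS 1.4 against NIS. The submitters' processing notes name CASAVA 1.7. The deposited lists hold chromosome, start and end, with no signal values. NIS entered only the calling, and it has no list of its own here. Without summits, motif windows were centred on peak midpoints.

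Overlap needed 1 bp. TSSs were all transcript starts of GENCODE mouse release 1 on mm9, whose coordinates are printed 1-based. Analyses used Python 3.11.15, numpy 2.4.6, scipy 1.17.1, pysam 0.24.0 and minimap2 2.31 (copies at 95% identity over 50% of a peak), and the overlap code was tested on simulated lists. Intervals are Wilson for shares, Newcombe for differences and order statistics for medians. Named regions were the 12 members with the most peaks (ties by bases under peaks), the 5 widest, the 5 narrowest and the 5 most covered. Named genes were the 15 with the most multi-peak regions (ties by peaks, then symbol) and listed genes with at least 1, except that items withheld are not reported here. The members and lists were chosen with earlier results of these data known. Alternatives changed the overlap rule, joining, the width limit, TSS sets, motif windows and gene assignment.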

Additional observations from a re-analysis of the deposited data

How the results depend on the processing

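Of 33 alternatives, 19 left the value within its interval, or a count within 1.5 times, 13 moved it and 1 reversed it. The count of 1138 regions became 332 with only peaks at least as wide as the median, 400 with a width limit of 5000 bp and, in an alternative chosen after seeing the data, 749 with all peaks wholly inside. The width difference of 3570 bp became 3156.5 bp with H3K4me1 regions joined over gaps under 500 bp and 3896 bp with the wider peaks alone. The difference in regions holding a TSS, 6.45 points, was 3.18 with 1 start per protein-coding gene and -5.49 when a TSS within 1000 bp counted. The spacing of 2024.5 bp was 1146 bp between edges and 2588 bp after joining peaks with gaps under 500 bp. The shared-region share of 54.8% was 48.8% by midpoints, 73.5% up to 5 kb and 61.9% with H3K4me1 regions joined. The RUNX difference of -0.463 points was -4.96 over 5 kb from a TSS and 2.72 under 1 kb. The causes were not tested, beyond fewer peaks or regions entering by construction. No pairing of samples was possible because there is 1 list per antibody, and the pairing of peaks within a region was not used. No result comes from a test. The lists hold no depth, and regions under 1500 bp include only 16 members.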

Other observations

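Noncoding genes lay in a small part of the multi-peak regions. MicroRNA genes were touched by 8 of 1138 members (0.703%, 95% Wilson interval 0.357 to 1.38%), among them Mir92b and Mir219-1, and by 44 of 12274 single-peak regions (0.358%, 0.267 to 0.481%), with overlapping intervals. Long intergenic noncoding RNA genes were touched by 47 members (4.13%, 3.12 to 5.45%) and 449 single-peak regions (3.66%, 3.34 to 4.01%).

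Near-identical copies elsewhere in mm9 were found for 13 of the 2386 member peaks (0.545%, 0.319 to 0.930%) and 67 of 10367 peaks of single-peak regions (0.646%, 0.509 to 0.820%). They fell in 9 members. All 3 peaks at Tagap, a GTPase-activating protein gene of activated T cells, and both peaks at Atg7, an autophagy gene, had a copy. Whether reads were placed at the wrong copy was not tested.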
